A study of Mus musculus with 3 samples.

Results

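The replication-dependent histone genes encode the core and linker histones that are made in bulk when DNA is copied. To follow them in the developing mouse retina, all gene symbols of the deposited matrices that start with *H2ac*, *H2bc*, *H3c* or *H4c* and a digit were used, along with *H1f1* to *H1f5*. The rule gave 67 of the 33696 genes in the matrices, of which 5 were linker histone H1 genes, 18 were H2A, 19 were H2B, 12 were H3 and 13 were H4 genes. No measured value entered this choice.

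Retinas of P6 (postnatal day 6) mice were dissociated, cells were enriched with beads against CD31, a surface protein of endothelial cells (ECs), and CD11b, a surface protein of microglia, and 3′ single-cell libraries were made from polyA RNA. There were 3 libraries, 1 of each genotype. The WT library came from wild-type mice, the *Tspan12* KO library from mice lacking *Tspan12*, a tetraspanin that helps norrin signal through its receptor, and the *Ctnnb1* cKO library from mice in which *Ctnnb1*, the gene of β-catenin, was deleted only in ECs. That deletion was driven by Pdgfb-iCreERT, a tamoxifen-dependent recombinase under the control of an EC gene, so that the other cells of the *Ctnnb1* cKO library should carry intact *Ctnnb1*. The strain background was C57BL/6 for all. Several mice were pooled per library, and wild-type animals came from other litters than the mutants. Since each genotype had 1 library, genotype and library cannot be told apart, and values were set side by side across genotypes without a test. Within each library, however, cycling and non-cycling cells of the same class were separated, and this contrast could be tested over the 3 libraries.

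A nucleosome holds DNA wound around a core of H2A, H2B, H3 and H4, and H1 binds the linker between cores. The genes for these proteins lie in clusters, have no introns in most cases, and are transcribed mainly in S phase under the control of NPAT. Their mRNAs usually end not in a poly(A) tail but in a short stem-loop that is bound by SLBP, and they are degraded when DNA synthesis stops. A method that captures poly(A) tails therefore sees only the part of these mRNAs that carries a tail or an A-rich stretch, and all levels below are levels of that part. Replication-independent variants such as H3.3, macroH2A and the linker histone H1.0 are encoded by other genes with polyadenylated mRNAs.

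The 3 libraries held 9951, 14426 and 9151 cell barcodes for WT, *Tspan12* KO and *Ctnnb1* cKO, with 92684519, 137114957 and 37008362 unique molecular identifiers (UMIs), and 8989, 12732 and 8451 cells were kept. Between 21 and 37 barcodes were shared by each pair of libraries. Although the labels call the samples vascular cells, ECs made up 538, 288 and 2712 of the kept cells, and rods, cones, bipolar cells and amacrine cells were present in every library. The 4 EC clusters held 8 of 8 EC markers, and the 694 cells named retinal progenitors were 1 cluster with 8 of 10 progenitor markers, led by genes of dividing cells. A cell was called cycling when, after each cell had been thinned to 2000 UMIs, it held at least 3 UMIs over 12 S-phase genes or at least 3 over 12 G2/M genes, none of which is a histone gene. This gave 178, 68 and 396 cycling and 342, 194 and 1492 non-cycling ECs, 27, 46 and 328 cycling and 212, 265 and 1449 non-cycling microglia, and 333, 174 and 80 cycling progenitors. Non-cycling progenitors were rare, with 8, 7 and 10 cells, and this limits every progenitor contrast. The targeted genes do not check the labels here, since a 3′ tag may lie outside the deleted part. In ECs, *Tspan12* was at 95.9, 84.2 and 40.2 CPM (UMIs per 1000000 UMIs of the same cells) and *Ctnnb1* at 523, 616 and 443. Here and below, sets of 3 values are in the order WT, *Tspan12* KO and *Ctnnb1* cKO unless stated otherwise.

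To see how the member mRNAs end, transcript models (GENCODE M21, build GRCm38.p6) were searched for the histone stem-loop. The stem-loop was found in 45 of the 67 members, including 12 of the 13 H4 genes, and in 0.128% of 58797 protein-coding transcripts. There were 8 different versions, and the most frequent was shared by 26 members. Sites of members that carry the results below are shown with the stem-loop in capitals, first the linker and H2A genes, then H2B, H3 and H4:
H1f2: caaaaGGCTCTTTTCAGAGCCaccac
H1f4: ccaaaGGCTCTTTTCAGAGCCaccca
H2ac8: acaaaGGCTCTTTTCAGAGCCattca
H2ac24: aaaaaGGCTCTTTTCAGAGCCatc
H2ac20: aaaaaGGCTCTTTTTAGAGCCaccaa
H2bc27: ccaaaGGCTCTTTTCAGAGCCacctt
H3c3: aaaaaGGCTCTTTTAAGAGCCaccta
H4c4: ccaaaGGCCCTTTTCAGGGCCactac
H4c9: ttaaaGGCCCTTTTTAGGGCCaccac

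The stem is the same in all H1, H2A, H2B and H3 genes shown, with *H2ac20* and *H3c3* differing only in the loop. The H4 genes shown carry a different stem. The models differ in what follows the stem-loop. The *H2ac24* model ends 3 bases after it, the *H2ac20* model 57 bases and the *H3c3* model 74 bases after it, whereas the *H1f2*, *H1f4* and *H4c4* models run on for 840, 1153 and 770 bases. The models of *H1f5*, *H1f1* and *H2bc4* hold no stem-loop, which says only that these letters are not in the models.

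Promoters (250 bases before to 50 after each start, RefSeq, GRCm38.p6) were matched for 57 members with 58 promoters. On either strand, CCAAT was found in 86.2% of them and in 37.4% of all 32851 promoters, and TATAAA in 58.6% against 13.6%. Other motifs followed the family. The octamer ATGCAAAT, the letters bound by Oct-1, was present in 46.7% of H2B and 35.3% of H2A promoters, against 1.74% of all, and in none of the H1, H3 or H4 promoters. GGTCCG, known from a subtype-specific element of H4 promoters, was present in 90.9% of H4 promoters and 8.25% of all. These matches are descriptions of letters, and no binding was measured. Windows of promoters of the most abundant members are shown with the motif in capitals, CCAAT in *H1f5* and *H1f4*, the octamer in *H2ac8* and *H2ac20*, and GGTCCG in *H4c4* and *H4c9*:
H1f5: ttggccgctccaCCAATcacagcccagcac
H1f4: ctggacagcgcaCCAATcacggcgcagctc
H2ac8: atagaggttctATGCAAATaagggactcaa
H2ac20: atgaacgccttATGCAAATtaggtctcaaa
H4c4: ggttttcaaacaGGTCCGcattggtattat
H4c9: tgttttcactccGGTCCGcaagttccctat

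In order, these windows lie at chr13:21780661-21780690 (minus strand), chr13:23622593-23622622 (minus), chr13:23571330-23571359 (minus), chr3:96221062-96221091 (minus), chr13:23581509-23581538 (plus) and chr13:22041391-22041420 (minus). The *H2ac8* octamer lies in the promoter of *H2bc8* as well, since these neighbours are transcribed away from each other from a shared region. By annotation, 53 members lie on chromosome 13 within 2219 kb, 10 on chromosome 3 within 50.3 kb, 3 on chromosome 11 and 1 on chromosome 6.

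Near-identical copies make some single-gene values uncertain. In the longest transcript model of 30 members, at least 50% of the windows of 50 bases occurred unchanged in another member, and 5 members shared no such window. The *H2ac24* model shared 93.1% of its windows with *H2ac23*, and the *H2ac18* model 89.2% with *H2ac19*. The last 100 bases of the *H1f4* model were also found in the *H2bc6* model, which overlaps *H1f4* on the same strand. By contrast, *H1f5* and *H1f1* shared none, *H4c4* shared 10.2%, and the last 100 bases of *H2ac8*, *H2bc4* and *H2bc27* held no window of another member.

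Over the cycling and non-cycling cells of the 3 classes, members gave 58584 of 51642062 UMIs. 4 members had no UMI there (*H2ac1*, *H2ac19*, *H2bc1* and *H2bc23*), and 9 had 1 to 49 UMIs (*H2ac12*, *H2ac23*, *H2ac7*, *H2bc22*, *H2bc26-ps*, *H3c15*, *H4c11*, *H4c17* and *H4c6*). The other 54 had at least 50 UMIs and entered the tests. The UMIs were not spread evenly. The 5 H1 genes gave 44.1% of member UMIs, H2A 21.3%, H2B 14.0%, H4 13.4% and H3 7.16%. *H1f5* alone gave 17.5% and *H1f4* 15.4%, followed by *H4c4*, *H1f2*, *H2ac8*, *H2bc4*, *H2ac24*, *H4c9*, *H2ac20* and *H3c3*. These 10 genes together gave 73.5%. A 3′ tag is counted once per molecule, so that these shares do not rise with transcript length, but they depend on how well each mRNA is captured.

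**Figure D1:**
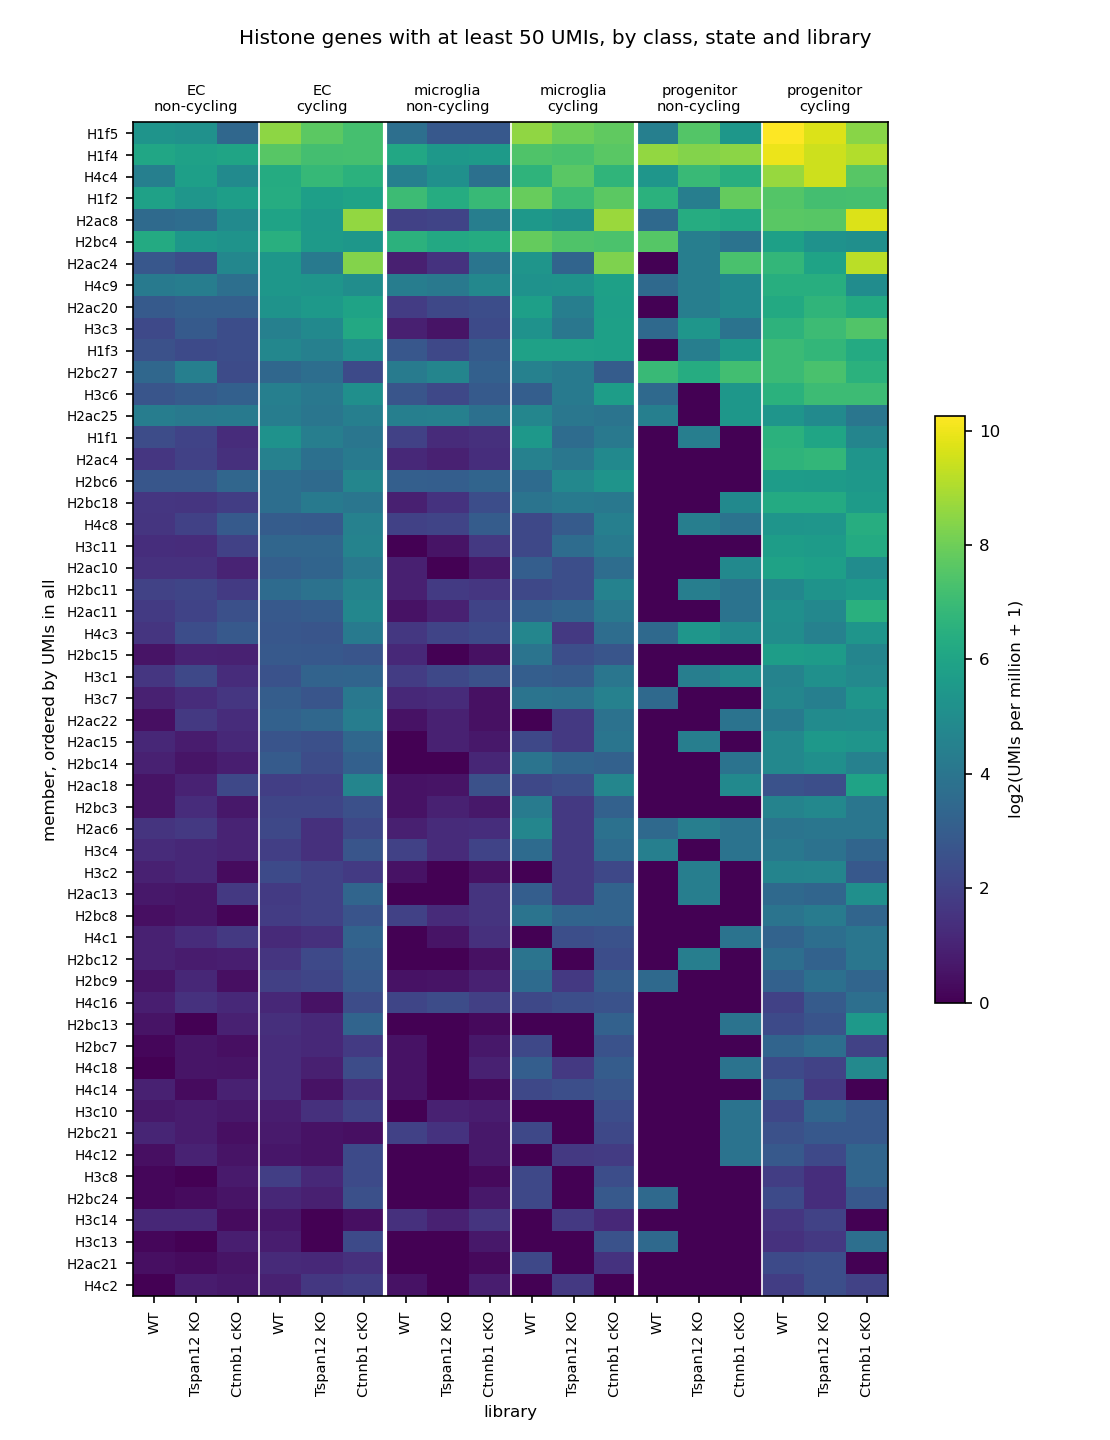
Levels of the 54 tested members, in rows ordered by their UMIs in all, in the 18 sums of cells (3 classes, 3 libraries, cycling or not), shown as a colour scale of log2(CPM + 1). In ECs and microglia the cycling columns are higher than the non-cycling columns for most rows, and cycling progenitors hold the highest levels.

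First, to ask which members differ between cycling and non-cycling ECs, UMIs were summed over the cells of each library and state. The sum of all members was at 392, 391 and 376 CPM in non-cycling ECs and at 1302, 1009 and 1874 in cycling ECs. The 3 non-cycling values were close to each other, every cycling value was higher, and the cycling values differed more between libraries. The log2 ratio of cycling to non-cycling was 1.81 ± 0.479 (SD, n = 3 libraries). By edgeR's quasi-likelihood test with library as a block and Benjamini-Hochberg adjustment over 14920 genes, 44 of the 54 tested members were higher in cycling ECs at an adjusted p under 0.05 and none was lower, where 9.83% of all genes were higher and 8.38% lower. Without the block, the count was 20. The median log2 fold change of the members was 2.27, against -0.0480 over all genes. For 38 members, every cycling sum lay above every non-cycling sum, as it did for 7.14% of all genes.

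Among the linker histones, all 5 genes rose in cycling ECs, by very different amounts. *H1f5* was at 38.2, 35.2 and 9.88 CPM in non-cycling ECs and at 367, 205 and 150 in cycling ECs. The groups did not overlap, and the log2 fold change was 3.26 (SE 0.16, edgeR adjusted p = 4.4e-24). *H1f1* and *H1f3*, much lower in level, rose by log2 3.07 (SE 0.23) and 2.66 (SE 0.21). *H1f4* was already at 66.2, 57.4 and 62.0 in non-cycling ECs and reached 191, 146 and 151, a log2 change of 1.43 (SE 0.12). *H1f2* changed least, from 57.1, 40.6 and 52.6 to 81.0, 54.4 and 61.7 CPM, with overlapping groups and a log2 change of 0.43 (SE 0.12, edgeR adjusted p = 0.0092). Thus the H1 gene with the most UMIs also had the largest estimate, close to that of *H1f1*. *H1f2* and *H1f4* were well measured in cells that did not meet the cycling rule, which can still hold some UMIs of the cycle genes.

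Of the core histones, 11 of 13 tested H2A, 12 of 15 H2B, 9 of 11 H3 and 7 of 10 H4 genes rose in cycling ECs. *H2ac8* was at 10.7, 11.8 and 29.4 CPM in non-cycling and 60.9, 45.8 and 385 in cycling ECs, a log2 change of 3.04 (SE 0.17). *H2ac24* went from 5.89, 4.43 and 25.7 to 42.2, 17.1 and 330.5, a log2 change of 3.30 (SE 0.17), with overlap between the non-cycling value of *Ctnnb1* cKO and the cycling value of *Tspan12* KO. Both genes were highest in the *Ctnnb1* cKO library in both states. *H2ac20*, *H2ac4* and *H3c3* rose by log2 2.77 (SE 0.18), 3.09 (SE 0.25) and 3.08 (SE 0.22). *H4c4* went from 20.6, 53.9 and 29.1 to 79.1, 115 and 93.7, a log2 change of 1.62 (SE 0.13), and *H4c9* rose by log2 1.23 (SE 0.15). Without the *Ctnnb1* cKO library the log2 changes of *H2ac8*, *H2ac24* and *H3c3* were 2.34, 2.63 and 2.36.

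The 10 members that did not pass the test in ECs were *H2ac25*, *H2ac6*, *H2bc21*, *H2bc27*, *H2bc4*, *H3c10*, *H3c14*, *H4c12*, *H4c14* and *H4c16*. Some of these were sparse, with estimates well above 0, such as log2 1.41 (SE 0.61) for *H3c10* and 1.54 (SE 0.67) for *H4c12*, so that a missed call does not show a steady level. *H2bc4*, the H2B gene with the most UMIs, was at 76.1, 42.6 and 37.5 CPM in non-cycling and at 88.8, 47.5 and 41.9 in cycling ECs, with a log2 change of 0.22 (SE 0.12, edgeR adjusted p = 0.22). *H2bc27*, which lies with *H2ac25* on chromosome 11, was at 9.78, 20.7 and 4.09 and at 9.88, 12 and 3.96. Both genes differed more between libraries than between states. As families, H2B gave the smallest ratio of summed levels in cycling to non-cycling ECs (log2 0.910 ± 0.422, SD, n = 3) and H2A the largest (2.33 ± 0.815). The H2A ratio ranged from 1.69 to 3.24 between libraries, so that it was not set apart from that of H3 (2.16 ± 0.655). Sums weigh genes by their level, and the H2B sum includes *H2bc4*. Taken by gene, H2B was not the lowest family. The median log2 change of tested genes was 2.66 for H1, 2.59 for H2A, 2.51 for H2B, 2.07 for H3 and 1.41 for H4.

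**Figure D2:**
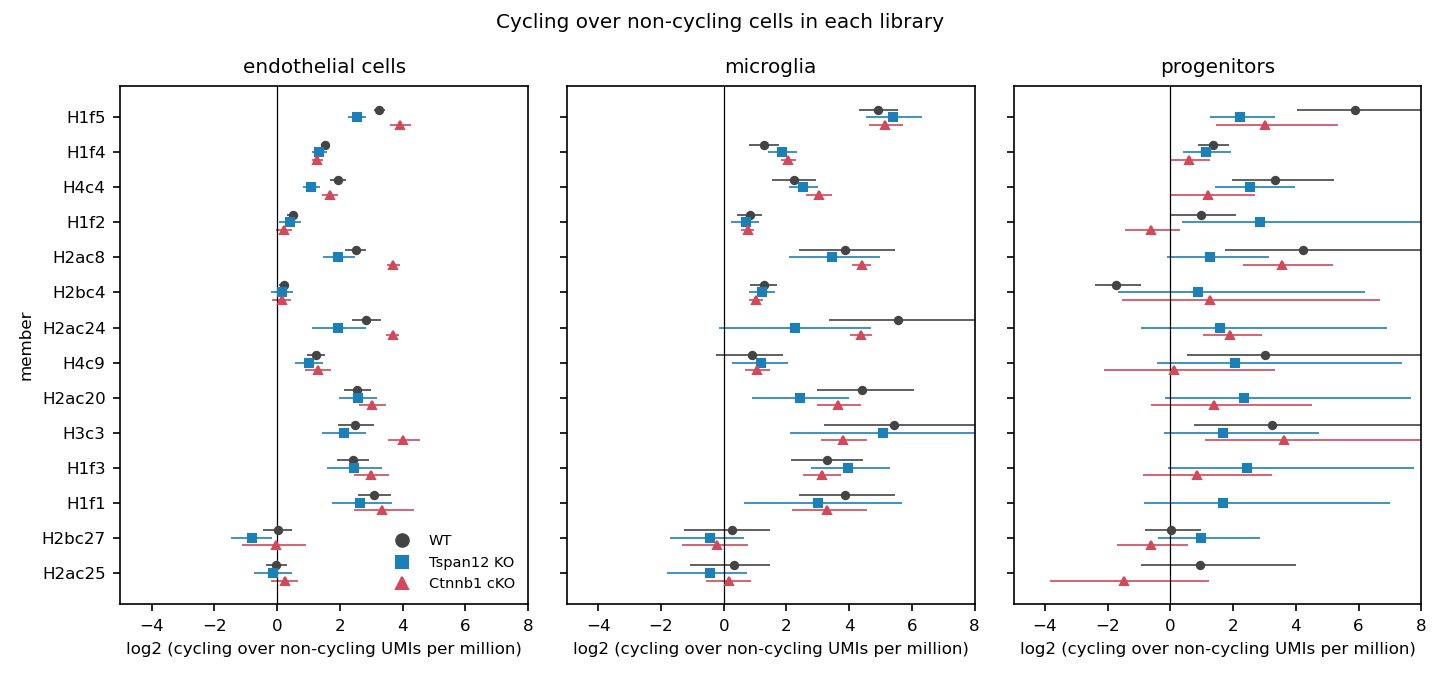
Log2 ratio of cycling to non-cycling cells for 14 members in each class, 1 point per library with a 95% interval for counting error, x axis limited to -5 to 8. Points are missing where a progenitor sum held no UMI of the gene. *H1f5* and *H2ac8* lie far above 0 in every class, and *H2bc27* and *H2ac25* lie around 0.

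Next, the same contrast was made in microglia. The sum of all members was at 452, 362 and 442 CPM in non-cycling and 1770.4, 1342 and 2348 in cycling microglia, a log2 ratio of 2.09 ± 0.279 (SD, n = 3). 40 of the 54 members were higher in cycling microglia and none was lower, where 4.35% of all genes were higher and 8.03% lower. Without the library block the count was 22. The median log2 change of members was 2.76 against -0.238 over all genes. 37 members were called in both ECs and microglia, where at most 4.35% of all genes can have been. *H1f5* rose most, from 12.4, 6.07 and 6.05 to 371, 253 and 214 CPM (log2 4.83, SE 0.23). *H2ac8* went from 2.98, 3.27 and 19.7 to 43.6, 35.8 and 415 (log2 4.04, SE 0.25, and 3.34 without *Ctnnb1* cKO), and *H4c4* from 21.3, 34.1 and 12.7 to 102, 197 and 104 (log2 2.41, SE 0.19). *H2bc4*, not called in ECs, was at 94.6, 72.8 and 79.2 in non-cycling and 229, 170 and 161 in cycling microglia, and the groups did not overlap (log2 0.87, SE 0.14, edgeR adjusted p = 2.9e-06). Again *H2bc27* and *H2ac25* did not pass the test, with log2 changes of -0.46 (SE 0.34) and -0.21 (SE 0.31). The WT library held only 27 cycling microglia, and without the *Ctnnb1* cKO library, which held most of them, 19 members passed.

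In progenitors, members were high in both states. The sum of all members was at 991, 1191 and 1643 CPM in the 25 non-cycling cells and at 4738, 4396 and 4349 in cycling progenitors, a log2 ratio of 1.85 ± 0.428 (SD, n = 3). 18 of the 54 members were higher in cycling progenitors and none lower, where 2.82% of all genes were higher and 0.449% lower. All 18 were also called in ECs and microglia, where at most 2.82% of all genes can have been called in all 3 classes. Without the block the count was 4, and without the WT library it was 6. *H1f5* went from 20.6, 182 and 42.5 to 1223, 837 and 347 CPM (log2 3.85, SE 0.35), and *H4c4* from 41.3, 121 and 85.0 to 413, 703 and 193 (log2 2.62, SE 0.33). *H1f4* was at 382, 323 and 354 in the non-cycling and 979.5, 702 and 537 in the cycling cells (log2 1.26, SE 0.20). For 13 members the non-cycling cells held no UMI, so that only a lower bound can be given, from 3 UMIs over these cells. *H2ac4* was at least 7.13-fold higher in cycling progenitors, *H3c11* at least 3.75-fold, *H2bc15* at least 3.57-fold and *H2bc6* at least 3.54-fold. The median log2 change was 2.61 as fitted and 1.55 with the members without a non-cycling UMI at their bound. Single values moved with the library left out. For *H1f5* the log2 change was 2.62 without WT and 5.07 without *Tspan12* KO. The count of 18 moved as well with the cells used. It was 3 with thinning to 4000 UMIs, 50 without doublet removal, 44 with neurogenic precursors added as progenitors, and 46 with an unnamed cluster led by Müller glia genes added, an alternative chosen after seeing the data.

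The size of the cycling effect was then compared between classes by interaction terms of the same fit. 3 members had a larger effect in microglia than in ECs, where 0.985% of all genes did and 1.37% had a smaller effect. The difference was log2 1.57 for *H1f5* (SE 0.30, edgeR adjusted p = 6.15e-04), 0.64 for *H2bc4* (SE 0.18, adjusted p = 0.043) and 0.79 for *H4c4* (SE 0.23, adjusted p = 0.046). *H2bc4* had a smaller effect in progenitors than in microglia, by log2 -1.75 (SE 0.45, adjusted p = 0.027), as 0.228% of all genes did. Its own effect in progenitors did not pass, at log2 -0.89, and leaving out 1 library gave values from -1.14 to 1.24, the latter without WT. Between progenitors and ECs no member passed, with 1.07% of all genes higher and 0.188% lower, and none was larger in progenitors than in microglia, where 1.03% of all genes were. These calls were not stable, with 0 members by DESeq2 and 17 with cells thinned to 1000 UMIs. Beside this, the median effect over the 12 G2/M genes that helped to define cycling cells was log2 3.09 in ECs, 4.6 in microglia and 2.45 in progenitors. Its part in the differences of the members was not tested.

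To place members within the cycle, cells were split into those with only S-phase genes, with both sets, and with only G2/M genes. In WT ECs, all members together rose from 392 CPM in cells with neither set and 461 in cells with only S-phase genes to 1890 in cells with both sets, and stood at 1155 in cells with only G2/M genes. In *Ctnnb1* cKO ECs the values were 376, 1026, 3011 and 1749. WT progenitors gave 991, 1776, 6684 and 4044. In every class and library the cells with both sets had the highest summed level, and the cells with only S-phase genes had the lowest level of the cycling cells, which in microglia of WT and *Tspan12* KO, at 263 and 268, was below that of the non-cycling cells. Several of these groups are small, with 7 ECs of *Tspan12* KO and 6 microglia of WT in the S-phase group, and no progenitor of *Ctnnb1* cKO.

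**Figure D3:**
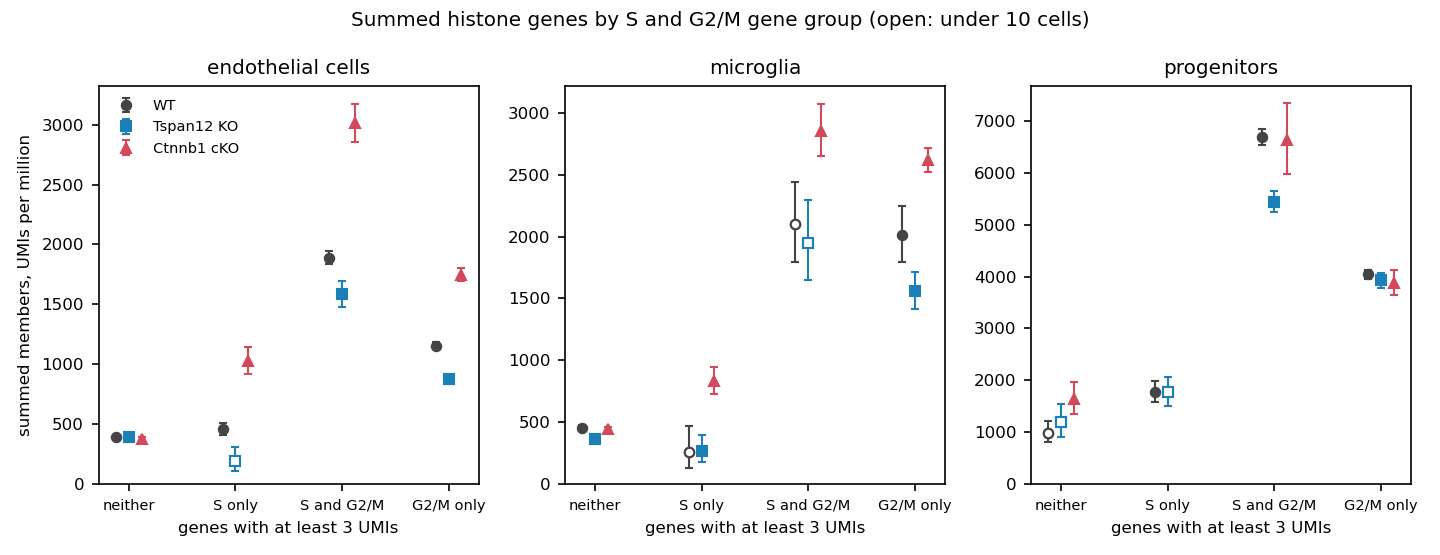
Summed level of all members in CPM by phase group for each class, 1 point per library with a 95% interval for counting error and open symbols for groups of under 10 cells. The level peaks in cells with both S-phase and G2/M genes, at 1890 in WT ECs and 6684 in WT progenitors.

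Cells with only G2/M genes were tested against cells with only S-phase genes, over 53 members and the groups of at least 10 cells. 5 members were higher in G2/M-only ECs, where 1.08% of all genes were, and none was lower, where 0.282% were. These were *H1f5* (log2 2.24, SE 0.28), *H1f4* (1.15, SE 0.20), *H2ac8* (1.21, SE 0.26), *H3c3* (2.24, SE 0.48) and *H3c6* (2.33, SE 0.54). In microglia 10 members were higher in G2/M-only cells, against 1.14% of all genes, with the lowest p-values for *H1f2* (log2 2.73, SE 0.32), *H2bc4* (2.78, SE 0.34) and *H2ac8* (2.39, SE 0.35) and the largest log2 change for *H2bc6* (3.93, SE 0.94). None was lower, against 0.511% of all genes. In microglia, members reached their highest level at different points. *H1f5* was at 855, 610 and 375 CPM in cells with both sets and at 208, 243 and 205 in G2/M-only cells. *H2bc4* was at 25.1, 27.1 and 43.4 in cells with both sets, below the non-cycling cells, and at 378, 261 and 219 in G2/M-only cells. *H1f2* gave 88.0, 67.8 and 118 with both sets and 371, 181 and 264 in G2/M-only microglia. In ECs *H2bc4* was at 90.1, 32.9 and 24.7 with both sets and at 89.5, 54.2 and 45.9 in G2/M-only cells. It was thus higher in G2/M-only ECs of both knockout libraries, by less than in microglia, and not in those of WT. In microglia the cells with both sets numbered only 5 in WT and 8 in *Tspan12* KO. Over the 3 libraries they held 79578, 73800 and 253369 UMIs of all genes, so that the low *H2bc4* levels there rest on few UMIs. Of the 12 members called in either class, 0 were called with cells thinned to 1000 UMIs and 2 without the library block.

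Cycling cells of the 3 classes were compared directly in a fit over their 9 sums, with 49 members tested. 37 members were higher in progenitors than in ECs, where 24.7% of all genes were, and 1 was lower, where 31.6% of all genes were. The median log2 difference of members was 1.42, against -0.114 over all genes. *H1f4* was higher by log2 1.67 (SE 0.19), *H4c4* by 1.60 (SE 0.25), *H2bc15* by 2.39 (SE 0.29) and *H4c8* by 1.85 (SE 0.24). Against microglia, 26 members were higher in progenitors (22.6% of all genes) and 2 were lower (22.7%). The member lower in progenitors than in ECs was *H2bc4*, by log2 -0.96, and it was lower than in microglia by -2.54 (SE 0.19), together with *H1f2* at -0.59. Between microglia and ECs only 5 members passed, all higher in microglia, where 18.5% of all genes were higher and 25.7% lower. These were *H2bc4* (1.58, SE 0.17), *H1f2* (1.39, SE 0.17), *H1f3* (0.94, SE 0.26), *H2ac6* (1.83, SE 0.53) and *H4c14* (1.99, SE 0.76). The largest difference of all was *H2bc27*, higher in cycling progenitors than in cycling ECs by log2 3.35 (SE 0.21) although it did not pass the cycling test in any class. The cycling cells also differed in phase. Cells with both gene sets were 118 of 333, 73 of 174 and 18 of 80 cycling progenitors, and 53 of 178, 15 of 68 and 64 of 396 cycling ECs. Of the 12 G2/M genes of the cycling rule, 7 were higher in progenitors than in ECs and 0 lower, and of the 12 S-phase genes 2 were higher and 3 lower. The part of phase in the class differences was not tested.

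**Figure D4:**
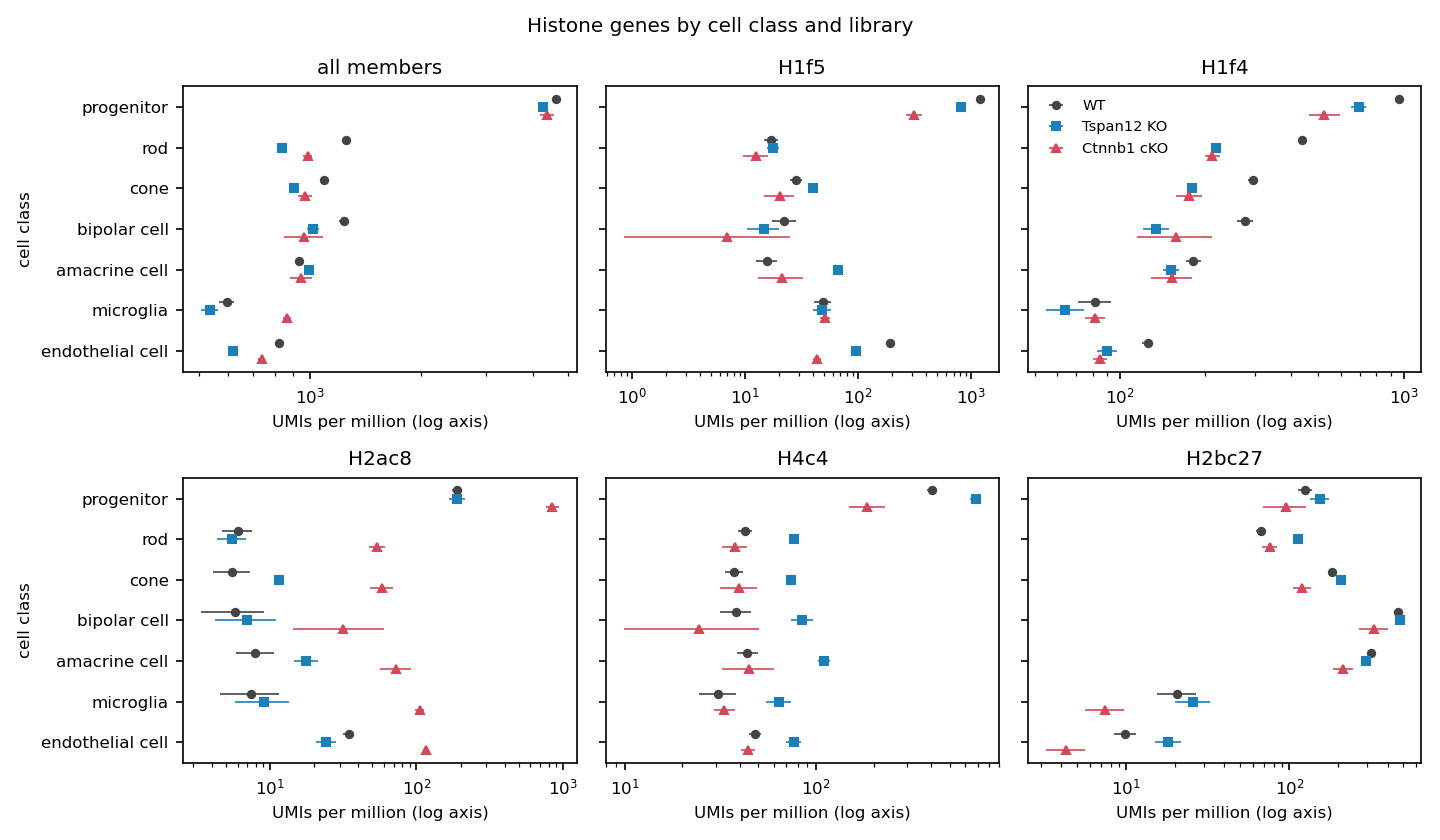
Level of all members together and of *H1f5*, *H1f4*, *H2ac8*, *H4c4* and *H2bc27* in 7 cell classes, in CPM on a log axis, 1 point per library with a 95% interval for counting error. Progenitors lead for all members, between 4267 and 4637, whereas *H2bc27* is highest in bipolar cells, between 329 and 474.

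Members were also measured in cells that have left the cycle. The sum of all members was at 1246, 839 and 985 CPM in rods and at 1233, 1019 and 959.9 in bipolar cells, against 821, 617 and 738 in all ECs and 4637, 4267 and 4376 in progenitors. In rods the members with the highest levels were *H1f4*, at 439.5, 218.5 and 211.5, and *H1f2*, at 366, 176.5 and 228, while *H1f5* was at 17.0, 17.9 and 12.5. Bipolar cells held *H2bc27* at 466, 474 and 329 and *H2ac25* at 174, 117 and 109, and amacrine cells held *H2bc27* at 316.5, 293 and 213.5. In ECs *H2bc27* was at 9.82, 18.1 and 4.27. *H2bc27* and *H2ac25* thus had levels in neurons of the same libraries well above those in ECs of either state. RNA released from neurons can enter any droplet, and its part in the EC values was not tested.

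The share of cells with at least 1 member UMI was high in non-cycling cells too. At 2000 UMIs per cell, it was 46.5%, 51.0% and 47.1% in non-cycling and 76.4%, 66.2% and 77.5% in cycling ECs. Before thinning, cycling ECs were at 98.9%, 94.1% and 91.4%, with median depths of 23675, 27908 and 5812 UMIs. Non-cycling rods, which do not divide, were at 88.8%, 80.8% and 84.2%, with median depths of 3928.5, 4405.5 and 4065 UMIs, so that the share of cells does not set cycling ECs apart from rods. Cycling progenitors were at 96.1%, 94.8% and 97.5%. The mean number of member UMIs per thinned cell was 0.746, 0.737 and 0.721 in non-cycling ECs, 3.01, 1.88 and 4.09 in cycling ECs, and 2.83, 1.78 and 2.0 in rods.

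The knockout libraries were then set beside WT. With 1 library per genotype, the ratios below carry 95% exact intervals for counting error only, and the spread between mice was not measured. Both knockouts share the WT library. The cells compared fell into different clusters. Most ECs of WT and *Tspan12* KO (510 and 204) were in a cluster led by *Slc38a5* and *Vwa1*, and most of *Ctnnb1* cKO (1788) in one led by *Hmcn1* and *Piezo2*. Most microglia of WT and *Tspan12* KO (163 and 252) were in a cluster led by *Gpr34* and *Cd53*, and most of *Ctnnb1* cKO (1810) in one led by *Ccl4* and *Il1b*. In cycling ECs, the summed level of all members was lower in *Tspan12* KO than in WT by log2 -0.37 (-0.43 to -0.30) and higher in *Ctnnb1* cKO by 0.52 (0.48 to 0.57). In cycling microglia the values were -0.40 (-0.57 to -0.22) and 0.41 (0.27 to 0.55), and in cycling progenitors -0.11 (-0.15 to -0.06) and -0.12 (-0.20 to -0.05). In non-cycling ECs they were close to 0, at -0.0018 and -0.06. Without *H2ac8* and *H2ac24*, chosen after seeing the data, the *Ctnnb1* cKO ratio was -0.0498 in cycling ECs, -0.0554 in cycling microglia and -0.595 in cycling progenitors. A sum near WT does not mean that the other members were unchanged, since some were higher and some lower. Over the 31 members with enough UMIs in cycling ECs, the median log2 ratio was 0.720, against -0.127 over all genes.

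*H2ac8* was higher in *Ctnnb1* cKO than in WT by log2 2.66 (2.50 to 2.82) in cycling ECs, 3.25 (2.43 to 4.21) in cycling microglia and 2.09 (1.88 to 2.30) in cycling progenitors. The difference was not limited to the cells in which *Ctnnb1* was deleted. Over the 7 named classes with at least 10 UMIs in both libraries, the *H2ac8* ratio was above 0 in 7, between 1.17 and 3.82, and in rods *H2ac8* was at 6.01, 5.48 and 53.8 CPM. Rods, too, fell into different clusters. 1658 of the 1739 rods of *Ctnnb1* cKO were in a cluster with 3 of 8 rod markers and a median of 1408 UMIs, which held 43 rods of WT and 72 of *Tspan12* KO, whereas most rods of WT (1137 and 673) and *Tspan12* KO (1793 and 1191) were in 2 others with 4 and 8 of 8 markers and medians of 2126 and 5172 UMIs. *H2ac24* behaved alike, with 2.97 (2.79 to 3.16), 2.96 (2.10 to 3.97) and 2.41 (2.15 to 2.67) in the 3 cycling classes and ratios above 0 in 7 of 7 classes. Named after its values were seen, *H2ac18* was higher by 3.14 (2.43 to 3.91) in cycling ECs and by 3.6 (2.59 to 4.62) in cycling progenitors. In *Tspan12* KO, *H2ac8* was at -0.41 (-0.73 to -0.10) in cycling ECs and at -0.01 (-0.22 to 0.20) in cycling progenitors. Its ratio there was above 0 in 4 of 8 classes, between -0.60 and 1.16, with the interval above 0 in amacrine cells (1.16, 0.66 to 1.67) and cones (1.07, 0.65 to 1.52). *H2ac24* was above 0 in 2 of 5 classes of *Tspan12* KO, with the interval above 0 in amacrine cells only (1.85, 0.91 to 2.89).

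Other members were lower in *Ctnnb1* cKO. *H1f5* was lower than in WT by log2 -1.29 (-1.43 to -1.14) in cycling ECs, -0.80 (-1.12 to -0.46) in cycling microglia and -1.82 (-2.10 to -1.55) in cycling progenitors, and *H1f1* by -1.25 (-1.73 to -0.80) in cycling ECs. In *Tspan12* KO, *H1f5* was lower as well, by -0.84 (-0.98 to -0.70), -0.55 (-0.95 to -0.15) and -0.55 (-0.64 to -0.45). Over the named classes, cycling or not, *H1f5* was mixed. In *Ctnnb1* cKO it was below WT in 4 of 6 classes with the interval below 0 in these 4, and above 0 in microglia (0.06, -0.23 to 0.36) and amacrine cells (0.46, -0.32 to 1.17). In *Tspan12* KO it was above 0 in 3 of 10, with cones at 0.49 (0.30 to 0.68) and amacrine cells at 2.09 (1.76 to 2.43), and had the interval below 0 in 5. *H4c4* was higher in *Tspan12* KO, by 0.54 (0.33 to 0.75) in cycling ECs, 0.95 (0.33 to 1.62) in cycling microglia and 0.77 (0.65 to 0.89) in cycling progenitors, and above 0 in 9 of 9 classes. *H2bc4* was below WT in *Tspan12* KO in 10 of 10 classes, with the interval below 0 in all 10. This was not particular to *H2bc4*. In *Tspan12* KO, *H1f2* was above 0 in 0 of 10 classes and *H1f4* in 1 of 10, with the interval below 0 in 7 and 9. In *Ctnnb1* cKO, *H2bc4* was above 0 in 0 of 8 classes, *H1f4* in 0 of 9 and *H1f2* in 2 of 9, with the interval below 0 in 4, 7 and 3. Library-wide values moved beside these. The median UMI count of cycling ECs was 23675 in WT and 5812 in *Ctnnb1* cKO, and the median share of mitochondrial UMIs was 2.23% and 0.366%. Their part in the ratios was not tested.

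**Figure D5:**
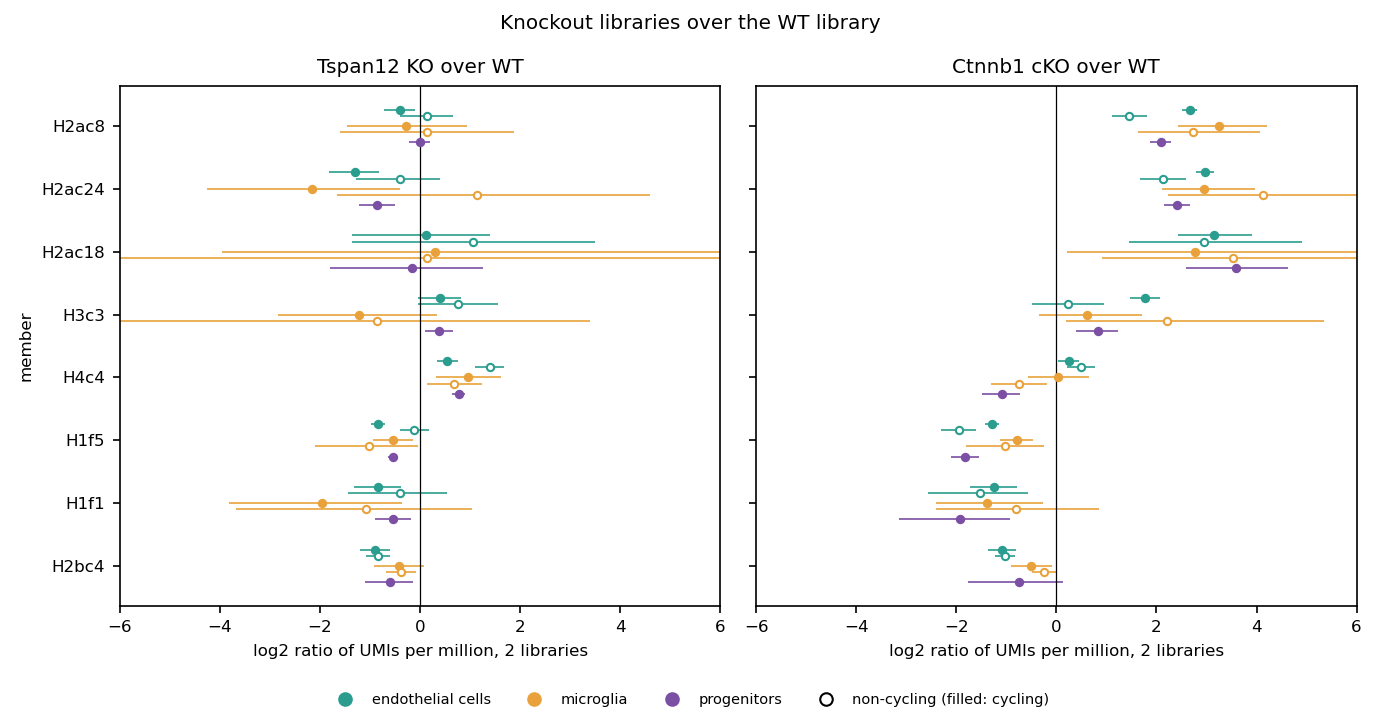
Log2 ratio of each knockout library to WT for 8 members in ECs, microglia and progenitors, with 95% intervals for counting error, filled for cycling and open for non-cycling cells, x axis limited to -6 to 6. *H2ac8*, *H2ac24* and *H2ac18* lie above 0 in *Ctnnb1* cKO in all 3 classes, and *H1f5* lies below 0 in the cycling cells of both knockouts.

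Counted over members with enough UMIs, 13 of 31 were at least 2-fold higher and 4 at least 2-fold lower in *Ctnnb1* cKO than in WT cycling ECs, where 5.64% and 10.8% of all genes were. In cycling progenitors these counts were 4 and 8 of 35, against 6.94% and 14% of all genes, and in cycling microglia 4 and 0 of 14, against 13% and 7.06%. In *Tspan12* KO, 0 of 30 members were 2-fold higher and 1 lower in cycling ECs, against 1.55% and 3.14% of all genes. None of 36 members in cycling progenitors (0.972% and 1.61% of all genes) and none of 5 in cycling microglia (3.61% and 1.93%) reached 2-fold in either direction. The share of members at least 2-fold higher in *Ctnnb1* cKO cycling ECs was thus above that of all genes, while the shares 2-fold lower in cycling ECs of either knockout were near it.

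The members were grouped by how their transcript models end. Over all 18 sums of cells, the 22 members whose models run at least 100 bases past the stem-loop gave 53.0% of member UMIs, the 23 members whose models end within 100 bases of it gave 16.3%, and the 22 members without a stem-loop in the model gave 30.7%. In ECs, models that run past the stem-loop gave 62.6% of member UMIs in non-cycling and 46.2% in cycling cells, models that end near it 12.3% and 20.4%, and models without one 25.1% and 33.4%. In the same order of groups, 14 of 20, 17 of 17 and 13 of 17 tested members were called in cycling ECs, with median log2 effects of 1.26, 2.51 and 2.66. In microglia the medians were 1.58, 2.91 and 3.16, with 14 of 20, 14 of 17 and 12 of 17 called. In progenitors the fitted medians were 2.33, 2.71 and 2.60, with 7 of 20, 6 of 17 and 5 of 17 called. These medians include fitted values of the 13 members without a UMI in non-cycling progenitors, and fitted values reached log2 10.4. With those members at their bound, the median over all tested members fell from 2.61 to 1.55, so that the groups cannot be compared in progenitors. No test compared the groups. *H2bc27* and *H2ac25*, which did not pass the cycling test in any class, and *H1f2* and *H4c9* belong to the models that run past the stem-loop, whereas *H2bc4*, not called in ECs, is among those without one. *H2ac8* and *H1f3*, which rose strongly in cycling ECs, run past the stem-loop too. Log2 effects of the members that run past it ranged from -1.20 to 3.49 in ECs and from -0.614 to 4.17 in microglia.

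Genes that work with these histones were taken from lists chosen with earlier results of these data known. For all lists, the shares of all genes in ECs, microglia and progenitors were 9.83%, 4.35% and 2.82% for a rise and 8.38%, 8.03% and 0.449% for a fall. Of 11 replication-independent variants, 7 rose in cycling ECs, 5 in microglia and 3 in progenitors, and none fell. *H2ax*, the variant phosphorylated at DNA breaks, rose by log2 1.92 (SE 0.13), 3.09 (SE 0.18) and 2.22 (SE 0.26), and *Cenpa*, the centromeric H3 variant, by 2.15 (SE 0.13), 3.54 (SE 0.17) and 0.97 (SE 0.28). *H3f3a* and *H3f3b*, which encode H3.3, did not pass in any class. *H3f3b* was at 1639, 1541 and 1069 CPM in non-cycling and 1939, 1734 and 1186 in cycling ECs.

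Of 16 tested genes for histone mRNA synthesis, processing and decay, 7 rose in cycling ECs, 4 in microglia and 2 in progenitors. *Slbp*, which binds the stem-loop, went from 63.7, 66.5 and 32.0 to 119.9, 117 and 68.6 CPM in ECs (log2 0.97, SE 0.13) and rose by 0.76 (SE 0.18) in microglia and 1.40 (SE 0.41) in progenitors. *Npat*, the activator of histone genes, rose by 0.86 (SE 0.27) in microglia and 2.28 (SE 0.67) in progenitors and did not pass in ECs. *Tut7*, which uridylates histone mRNAs during their decay, fell by 0.48 on the log2 scale in ECs and by 0.62 in microglia, the only gene of the list that fell. Of 17 histone chaperones and acetylation genes, 15, 12 and 2 rose. *Asf1b*, a chaperone of newly made H3 and H4, rose by 2.30 (SE 0.20), 3.76 (SE 0.29) and 3.33 (SE 0.76).

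Between phases, 2 of the 16 histone mRNA genes were lower and none was higher in G2/M-only than in S-only microglia. *Slbp* was lower in G2/M-only than in S-only microglia by log2 -1.66 (SE 0.29), *Casp8ap2*, which acts with NPAT, by -1.89 (SE 0.36), and 6 of the 17 chaperone and acetylation genes were also lower, while 5 of the 11 variants were higher and none lower, as for 10 of the members. Of all genes, 0.511% were lower and 1.14% higher in G2/M-only than in S-only microglia. No test compared these lists with the members. In the same test in ECs, no gene of these lists was called lower. Over the 9 pairs of class and library, the genes whose ratio of cycling to non-cycling varied most like that of the summed members were *Ncapg2* (Pearson r = 0.855), *Rfc4* (0.852), *Sod2* (0.845), *Cd48* (0.818) and *C920021L13Rik* (0.813). These 5 had the highest r when the 14920 tested genes, without members and the cycle genes, were ranked. The values are descriptions over 9 pairs that share libraries, and with so many genes ranked a high r does not show a link. *Ncapg2*, a condensin subunit, and *Rfc4*, a subunit of the clamp loader, were higher in cycling cells in all 9 pairs, with log2 ratios of 0.84 to 2.80 and 0.66 to 2.01. The others were not raised in this way, with log2 ratios of -0.372 to 0.145 for *Sod2*, -1.90 to 0.623 for *Cd48* and -1.16 to 0.400 for *C920021L13Rik*. They were like the members only in how the ratio varied between pairs.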

How the data were processed

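UMI count matrices, gene tables and barcodes of 3 Chromium 3′ libraries were used as deposited. The authors counted UMIs with Cell Ranger. The matrix headers name version 8.0.1 and the study's methods another version, and the submitters' processing notes name GRCm39 and the methods mm10, so that no coordinate was assigned to a count. The deposited counts were raw, with 33696 genes, and held barcodes of at least 500 UMIs. Cells needed 250 genes and at most 15% mitochondrial UMIs, and the cells with the highest simulated-doublet scores were removed (0.8% per 1000 cells: 760, 1656 and 665 cells of WT, *Tspan12* KO and *Ctnnb1* cKO), since the caller's own threshold marked 0, 0 and 323.

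Clusters (scanpy 1.11.5, leidenalg 0.10.2, 2000 variable genes without the members, 30 components, 20 neighbours) were named from marker lists. Of 32 clusters, 1 was named as retinal progenitors, and a further cluster that matched them best was led by Müller glia genes and stayed unnamed. Cells under 2000 UMIs could not be thinned and were left out (18, 26 and 824 ECs, 47, 56 and 344 microglia, and 17, 12 and 53 progenitors of WT, *Tspan12* KO and *Ctnnb1* cKO). Cells are not replicates, so UMIs were summed per library, class and state.

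The 18 sums were fitted by edgeR 4.0.16 (R 4.3.3) with TMM, a quasi-likelihood test, library within class as block, genes of at least 50 UMIs and Benjamini-Hochberg adjustment over all genes tested, threshold 0.05. The block was used since the cycling and non-cycling sums of a class come from the same library. SE is the log2 fold change divided by the square root of F. Counts were simulated for 14731 genes with a dispersion of 0.1 for every gene and no differences between libraries of a class. In the simulated EC contrast, 67.8% of genes changed by log2 2 and 10.6% of those changed by log2 1 were recovered, and 1.14% of calls were false. Since these settings differ from the data, the rates do not give the power or error of the tests above. Intervals are exact at 95% (Poisson, Clopper-Pearson, conditional binomial) and, like floors of 3 counts, cover counting error only. With the block, the p-values of the cycling contrast measure how the ratio of cycling to non-cycling sums varied between 3 libraries, which differ in genotype. The estimate of this spread was shared by all 3 classes, so that p-values in ECs also rest on microglia and on the few non-cycling progenitors. For single members without counts in a state, a bound is given in place of a fold change, whereas medians described as fitted include their fitted values. DESeq2 1.42.0 was an alternative.

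Members with values in the text are the 10 with the most UMIs, *H1f1* to *H1f5*, the 10 with the lowest p per contrast and those that differed between classes, others being named after their values were seen. Members, lists and tests were chosen with earlier results of these data known. Ars2 of the mRNA list was matched to no row of the gene table. Knockout libraries were not tested against WT.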

Additional observations from a re-analysis of the deposited data

Results flagged for a closer look

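The cycling effect of 3 members differed between classes by the interaction test. The effect of *H1f5* was larger in microglia than in ECs by log2 1.57, that of *H2bc4* by 0.64 and that of *H4c4* by 0.79, and that of *H2bc4* was smaller in progenitors than in microglia, with a difference of -1.75. The effect of *H2bc4* in progenitors did not itself pass the test and ranged from log2 -1.14 to 1.24 when 1 library was left out, the latter without WT, so that its sign rests on that library. In G2/M-only microglia *H2bc4* stood at 378, 261 and 219 CPM in WT, *Tspan12* KO and *Ctnnb1* cKO, whereas in G2/M-only progenitors it was at 62.7, 51.1 and 37.1. Beside these values stands the median effect over the G2/M genes used to call cycling cells, log2 3.09 in ECs, 4.6 in microglia and 2.45 in progenitors, whose part was not tested. With 3 libraries per group, no check for single outlying libraries was made.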

How the results depend on the processing

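The counts of members higher in cycling ECs and microglia kept to within 1.5 times of 44 and 40 under every alternative tried except the fit without the library block (20 and 22) and, for microglia, the fit without the *Ctnnb1* cKO library. Each group holds only replicate 1, so the pairing is that of a library with itself. Leaving out 1 library gave 32 to 43 members in ECs, 19 to 38 in microglia and 6 to 18 in progenitors, 29 to 40 for classes in cycling cells, 7 to 10 for phases, where some fits gave no value, and 2 for effects that differ between classes. The count of 18 in progenitors became 7 with DESeq2, 4 without the block, 3 with thinning to 4000 UMIs, 10 with a cut of 2 UMIs, 9 with a mitochondrial limit of 10%, 6 with members kept in the clustering, 5 with non-cycling cells at 0 UMIs of the cycle genes, 50 without doublet removal, 44 with classes from a marker gate, 44 with neurogenic precursors added and 46 with the unnamed cluster added.

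Members whose effect differs between classes, 3 in all, were 0 with DESeq2, without the block, with thinning to 4000 UMIs, with a cut of 2 UMIs and with non-cycling cells at 0, and 17 with thinning to 1000, 9 with a cut of 5, and 5 with library totals, with members in the clustering, with the mitochondrial limit of 10% and with G2/M genes alone. The 40 members that differ between classes in cycling cells became 23 without the block, and the 12 of the phase test 5 with DESeq2, 2 without the block, 0 with thinning to 1000 and 5 with a cut of 5.

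The summed log2 ratio of cycling to non-cycling moved in microglia to 1.74 with a cut of 2 and 1.80 with TMM-scaled totals, and in progenitors to 0.921 with thinning to 1000, 1.21 with a cut of 5 and 2.38 with the unnamed cluster. Without 1 library it was 1.55 to 2.03 in ECs, 1.93 to 2.19 in microglia and 1.64 to 2.07 in progenitors. The summed ratio of *Ctnnb1* cKO to WT in cycling ECs became 0.649 and 0.333 with thinning to 1000 and 4000, 0.399 and 0.643 with cuts of 2 and 5, 0.660 with TMM-scaled totals and -0.0498 without *H2ac8* and *H2ac24*. In cycling microglia it became 0.774 with thinning to 4000, 0.667 with a cut of 2, 0.212 without doublet removal, 0.644 with TMM-scaled totals and -0.0554 without *H2ac8* and *H2ac24*, and in cycling progenitors 0.221 and -0.722 with thinning to 1000 and 4000, 0.0814 without doublet removal, -0.00172 with the gate, 0.176 with members clustered, 0.00399 with the unnamed cluster, -0.249 with TMM-scaled totals and -0.595 without *H2ac8* and *H2ac24*. For *Tspan12* KO it became -0.261 in ECs with a cut of 5, -0.152 and -0.148 in microglia with thinning to 4000 and a cut of 2, and, in progenitors, 0.0186 with thinning to 1000, -0.565 without doublet removal, -0.762 with the gate, -0.0106 with the mitochondrial limit and -0.157 with TMM-scaled totals. Thus no direction is read from the summed ratios in progenitors.

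In progenitors the log2 change of *H2bc27* became -0.46 with the gate and -0.37 with the unnamed cluster, and that of *H2ac25* -0.50 and -0.64. In this order, edgeR adjusted p was 0.016, 0.014, 0.038 and 0.0021. Both genes were thus called lower in cycling progenitors under these settings, unlike in the main fit. The share of WT cycling ECs with a member UMI was 61.4% and 85.7% at 1000 and 4000 UMIs and 98.9% without thinning. The unnamed cluster and the sum without *H2ac8* and *H2ac24* were chosen after seeing the data, and the causes of these shifts were not tested. Depth limits members under 50 UMIs, which were not tested, and the 25 non-cycling progenitors.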

Other observations

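*H1f5* in amacrine cells was at 15.6, 66.2 and 21.3 CPM (WT, *Tspan12* KO and *Ctnnb1* cKO), a log2 ratio of *Tspan12* KO to WT of 2.09 (1.76 to 2.43), whereas in rods it was at 17.0, 17.9 and 12.5. After thinning, 41 of the *Tspan12* KO amacrine cells met the rule for cycling cells, against 3 in WT and 11 in *Ctnnb1* cKO, with a median depth of 19289 UMIs against 5303 in the other amacrine cells of that library. *H2bc4* stood out in astrocytes, at 254, 87.8 and 139.6 CPM, over 21, 47 and 21 cells.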
